A study of Mus musculus with 12 samples.

Results

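Sprouty and Spred proteins and the transmembrane protein Il17rd (also called Sef) damp signalling from receptor tyrosine kinases, and 7 of their genes are described here in the mouse epididymis. The genes were Spry1, Spry2 and Spry4 of the Sprouty family, Spred1, Spred2 and Spred3 of the Spred family, and Il17rd. They were taken from a list of known feedback inhibitors and were 7 of 55536 genes in the count tables and 7 of 19213 genes tested. All 7 passed the low-count filter. Polyadenylated RNA was sequenced from segments 1, 2 and 3 of the epididymis of wild-type (WT) mice, with segment 1 the nearest to the testis. Ligated tissue (L1, L2 and L3) came from mice in which a suture closed the efferent ducts, the tubes that bring sperm and fluid from the testis, at the head of the epididymis. Control tissue (C1, C2 and C3) had no ligation. There were 2 libraries in each of 6 groups, 1 sequenced in batch 3017 and 1 in batch 3097, and a library is a pool from 2 mice. The labels used here give no strain, age or time after ligation, nor whether segments or groups shared mice, and the controls are labelled as not ligated, with no mention of a sham operation.

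A receptor tyrosine kinase that has bound its ligand recruits adaptors such as Grb2, activates Ras and then the Raf, MEK and ERK kinases. ERK activity induces the Sprouty genes, and the Sprouty proteins then act back on the steps between receptor and Raf. Spred proteins bring neurofibromin, which switches Ras off, to the membrane, and Il17rd acts at the membrane on fibroblast growth factor receptors and on the ERK pathway. In the initial segment of the epididymis, ERK activity is known to depend on factors that reach the duct lumen from the testis, and the receptor kinase Ros1 is needed for this segment to form.

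In control tissue, the mean levels of the 6 Sprouty and Spred genes were graded along the duct, highest in segment 1 and lowest in segment 3. All 6 were called higher in segment 1 than 3 (25% of all genes). Between segments 1 and 2, 5 were called higher (21.1%), and between segments 2 and 3, 3 were (0.911%). In ligated tissue the 6 genes stood near or below the level of control segment 3 in all segments. No difference between ligated segments was called for any of the 7 genes. Ligation therefore went with 3.3-fold (Spry2) to 21.7-fold (Spry4) lower levels of the 6 genes in segment 1. The falls of the 6 in segment 2 were smaller in size, but that change of effect was called for only 3 of them (8.2% of all genes in that direction). In segment 3 edgeR called no difference, while DESeq2 called Spred1 and Spred2 lower. Il17rd ran the opposite way, lowest in control segment 1.

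Promoter windows are shown for 3 of the 6 genes that fell together after ligation (Spry1, Spry2 and Spred2) and for Il17rd, which did not fall with them. Each is the reference sequence of RefSeq on GRCm38.p6, from 250 bases before to 50 bases after the annotated start, 5′ to 3′ on the gene's strand. The windows are chr3:37639697-37639996 (plus strand), chr14:105896770-105897069 (minus), chr11:19924192-19924491 (plus) and chr14:27038751-27039050 (plus). Capitals mark AGGAAG, a core bound by PEA3-type ETS factors, the related ETS core CCGGAA and the GC box GGGCGG. Each was searched on both strands, and a match on the other strand stands in capitals as its reverse complement.
Spry1: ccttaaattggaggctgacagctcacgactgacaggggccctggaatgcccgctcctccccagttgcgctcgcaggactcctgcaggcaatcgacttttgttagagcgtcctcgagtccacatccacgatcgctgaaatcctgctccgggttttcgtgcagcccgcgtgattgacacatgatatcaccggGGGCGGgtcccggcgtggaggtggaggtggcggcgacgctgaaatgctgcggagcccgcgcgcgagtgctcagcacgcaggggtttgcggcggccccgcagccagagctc
Spry2: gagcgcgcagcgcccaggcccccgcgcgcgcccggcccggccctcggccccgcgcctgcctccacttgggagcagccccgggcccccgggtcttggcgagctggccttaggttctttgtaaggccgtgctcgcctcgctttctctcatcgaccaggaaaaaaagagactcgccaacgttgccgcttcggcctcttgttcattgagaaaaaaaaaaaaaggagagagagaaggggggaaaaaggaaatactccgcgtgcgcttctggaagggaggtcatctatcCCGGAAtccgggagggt
Spred2: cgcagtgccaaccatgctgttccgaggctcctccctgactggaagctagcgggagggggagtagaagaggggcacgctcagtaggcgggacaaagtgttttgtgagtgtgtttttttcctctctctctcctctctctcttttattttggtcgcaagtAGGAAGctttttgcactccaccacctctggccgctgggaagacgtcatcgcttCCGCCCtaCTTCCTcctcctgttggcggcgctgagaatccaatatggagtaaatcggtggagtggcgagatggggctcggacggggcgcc
Il17rd: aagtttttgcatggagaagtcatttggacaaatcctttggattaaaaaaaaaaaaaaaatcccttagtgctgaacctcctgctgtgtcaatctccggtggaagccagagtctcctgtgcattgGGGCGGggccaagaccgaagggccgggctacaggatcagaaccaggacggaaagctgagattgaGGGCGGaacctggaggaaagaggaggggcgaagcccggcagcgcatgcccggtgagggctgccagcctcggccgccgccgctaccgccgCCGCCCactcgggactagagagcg
The Spry2 window held CCGGAA 1 time and the Spred2 window held AGGAAG 2 times. The Spry1 window had neither core, nor had those of Spred1, Spred3 and Il17rd. The Spred1 and Spred3 windows were searched but are not shown, and no window was available for Spry4. Over 32817 promoter windows of the same length, 35.4% held AGGAAG and 14.9% held CCGGAA. The GC box GGGCGG was in the windows of Spry1, Spred1, Spred2, Spred3 and Il17rd, and in 35.6% of all windows. The AP-1 motif TGANTCA (7.81% of windows) and the CRE motif TGACGTCA (1.79%) were in none of the 6 members' windows. The motifs do not overlap one another in these windows, and each match is a description of the letters only. The annotated start agreed between RefSeq and GENCODE for Spry1 and Spry2 and lay 67 and 60 bases apart for Spred2 and Il17rd, but 303 bases apart for Spred1 and 1764 bases apart for Spred3.

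The genes lie on 6 chromosomes. In GENCODE release M21 on GRCm38, Spry1 (ENSMUSG00000037211) is at chr3:37639947-37644598 on the plus strand and Spry2 (ENSMUSG00000022114) at chr14:105891947-105896819 on the minus strand. Spry4 (ENSMUSG00000024427) is at chr18:38586247-38601415 on the minus strand. Spred1 (ENSMUSG00000027351) is at chr2:117121374-117182279 and Spred2 (ENSMUSG00000045671) at chr11:19924375-20024026, both on the plus strand. Spred3 (ENSMUSG00000037239) is at chr7:29158829-29170411 on the minus strand and Il17rd (ENSMUSG00000040717) at chr14:27038941-27107286 on the plus strand.

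Library totals were 30.5 to 42.3 M counts. Levels are given in CPM, the share of a library's counts that a gene took, with library sizes scaled by TMM, which aligns libraries on the bulk of their genes. The 2 libraries of control segment 2 stood further apart than those of any other group, at 115.5 in a chi-square over genes divided by its degrees of freedom, against 22.6 to 80.1. Among the 5042 genes that differed at least 2-fold between control segments 1 and 3, 80.2% lay nearer to segment 1 in the batch 3017 library of control segment 2 than in the batch 3097 library. All 7 members did so too. Positions are given on a log scale where control segment 3 of the same batch is 0% and control segment 1 is 100%. The members stood at 44.7% (Spred2) to 95.9% (Spred3) in batch 3017 and at 18.5% (Spred2) to 50.5% (Spred3) in batch 3097. The median of the 5042 genes was lower, at 32.6% in batch 3017 and 9.47% in batch 3097. Results of comparisons with control segment 2 are therefore also given with single libraries left out, as counts of called members or as ranges of log2 values. The summed level of 12 marker genes of initial segment and caput principal cells was 73700 to 112000 CPM in control and 44500 to 61100 CPM in ligated libraries. In ligated segment 1 that sum was mostly Gpx5 (a mean of 36800 CPM) and Adam7 (9000 CPM), while Lcn8 fell from a mean of 14000 to 14.2 CPM, Lcn9 from 8580 to 0.926 CPM and Rnase10 from 9180 to 1.57 CPM. Lcn5 of this list went the other way, from a mean of 70 to 467 CPM, with no call (edgeR adjusted p = 0.0619). Gpx5 was also high in control segment 3, at 55500 CPM, so the sum does not mark segment 1. In bulk tissue, fewer cells of a type and less RNA per cell cannot be told apart.

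Spry1 encodes a Sprouty protein best known for holding back Ret signalling in the developing kidney. Its level in batches 3017 and 3097 was 105 and 89.5 CPM in control segment 1, 45.1 and 21.7 CPM in segment 2, and 15.1 and 10.5 CPM in segment 3. In ligated tissue it was 14.1 and 12.3 CPM, 13.8 and 10.4 CPM, and 15.9 and 9.48 CPM in the same order. Both libraries of control segment 1 were above all others, both of control segment 2 came next, and control segment 3 overlapped all ligated groups. Spry1 was 7.39-fold lower after ligation in segment 1 (log2 fold change -2.89 ± 0.20 SE, edgeR adjusted p = 2.18e-05) and 2.65-fold lower in segment 2 (-1.41 ± 0.19, adjusted p = 0.00532). The segment 2 call was lost without the batch term (adjusted p = 0.0551), with only the 4 libraries compared (0.0819) and without the batch 3017 library of ligated segment 2 (0.078). In segment 3 the log2 fold change was -0.03 ± 0.19 (adjusted p = 0.96). Spry1 was also the only member called between the sequencing batches, 0.53 lower on the log2 scale in batch 3097 (adjusted p = 0.0244).

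Spry2, whose protein binds the ubiquitin ligase Cbl, had the flattest gradient of the 6. It was at 35.7 and 31.3 CPM in control segment 1, 22.6 and 19.0 CPM in segment 2 and 13.6 and 12.1 CPM in segment 3. Ligated libraries held 9.24 and 11 CPM, 10.6 and 9.64 CPM, and 11.4 and 10.7 CPM. The 3 control segments did not overlap, and every ligated library was below every control library. The fall after ligation was 3.3-fold in segment 1 (log2 fold change -1.72 ± 0.13, edgeR adjusted p = 1.71e-05) and smaller in segment 2 (-1.04 ± 0.13, adjusted p = 0.00245). In segment 3 it was -0.21 ± 0.13 (adjusted p = 0.435).

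Spry4, a Sprouty gene widely used as a readout of fibroblast growth factor signalling, had the steepest gradient. Control libraries held 15.2 and 9.74 CPM in segment 1, 3.75 and 0.869 CPM in segment 2, and 0.852 and 0.316 CPM in segment 3. Ligated libraries held 0.537 and 0.588 CPM, 0.233 and 0.341 CPM, and 0.341 and 0.278 CPM. These rest on 327 to 609 counts in control segment 1, but on 9 to 30 counts in control segment 3 and the ligated groups, so differences among the low groups were poorly resolved. Spry4 was 21.7-fold lower in ligated segment 1 (log2 fold change -4.44 ± 0.53, edgeR adjusted p = 0.000208), with no overlap. In segment 2 the fall was -2.80 ± 0.58 (adjusted p = 0.0213), and the 2 control libraries themselves differed by more than in any other member. Leaving out 1 of the 4 libraries gave -3.54 to -1.78, called in 1 of 4 such fits (adjusted p up to 0.218). In segment 3 the difference was -0.84 ± 0.63 (adjusted p = 0.544), with overlap.

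**Figure D1:**
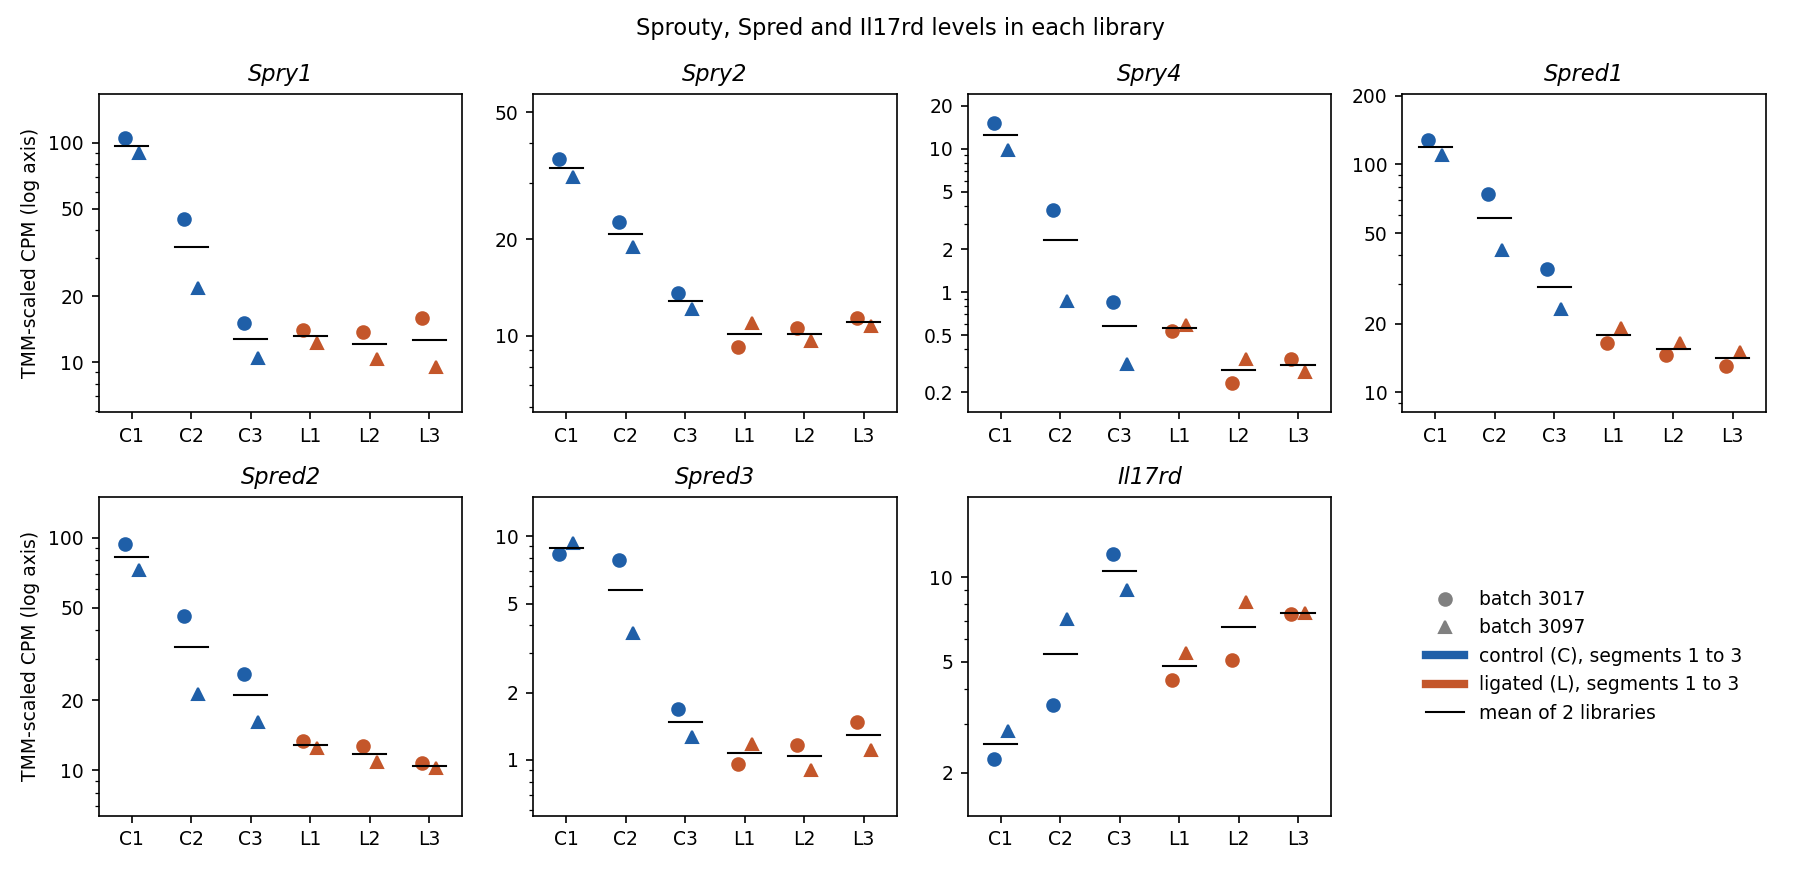
TMM-scaled CPM (log axis) of the 7 genes in each library, by group (C control, L ligated, segments 1 to 3) and sequencing batch (circle 3017, triangle 3097), with the mean of 2 libraries as a bar. The means of the 6 Sprouty and Spred genes step down from C1 to C3, with no difference called between L1, L2 and L3. The Il17rd mean steps up from 2.54 to 10.6 CPM across the control segments.

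Spred1, mutated in the human Legius syndrome, encodes a protein that recruits neurofibromin to Ras. It was at 128 and 110 CPM in control segment 1, 73.9 and 42.2 CPM in segment 2, and 34.7 and 23.3 CPM in segment 3. Ligated libraries held 16.4 and 19.2 CPM, 14.6 and 16.4 CPM, and 13.1 and 15.1 CPM. Every ligated library lay below every control library, also in segment 3. The log2 fold change was -2.74 ± 0.28 in segment 1 (edgeR adjusted p = 0.000269), -1.88 ± 0.28 in segment 2 (adjusted p = 0.0107) and -1.02 ± 0.27 in segment 3 (unadjusted p = 0.00747, adjusted p = 0.153). The segment 3 difference was called by DESeq2, with an adjusted p of 0.00403. In segment 2, leaving out 1 of the 4 libraries gave -2.22 to -1.46, and the call did not hold in every such fit.

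Spred2, its close relative, showed the same form. Control libraries held 93.7 and 72.5 CPM in segment 1, 46.2 and 21.3 CPM in segment 2, and 26.0 and 16.1 CPM in segment 3. Control segments 2 and 3 overlapped. Ligated libraries held 13.3 and 12.5 CPM, 12.7 and 10.8 CPM, and 10.7 and 10.2 CPM, again all below every control library. The log2 fold change was -2.67 ± 0.25 in segment 1 (edgeR adjusted p = 0.000122) and -1.46 ± 0.24 in segment 2 (adjusted p = 0.0136). In segment 3 it was -0.97 ± 0.24 (unadjusted p = 0.00459, adjusted p = 0.124), which DESeq2 called with an adjusted p of 0.00524.

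Spred3, the third Spred gene, was at 8.34 and 9.36 CPM in control segment 1, 7.85 and 3.70 CPM in segment 2, and 1.68 and 1.26 CPM in segment 3. Ligated libraries held 0.956 and 1.18 CPM, 1.17 and 0.901 CPM, and 1.47 and 1.11 CPM. The batch 3017 library of control segment 2 was close to control segment 1, whereas in batch 3097 the step from segment 1 to 2 was 1.23 and that from 2 to 3 was 1.25 on the log2 scale of CPM plus 0.5. Spred3 was 8.34-fold lower in ligated segment 1 (log2 fold change -3.06 ± 0.33, edgeR adjusted p = 9.12e-05) and lower by 2.44 ± 0.33 on the log2 scale in segment 2 (log2 fold change -2.44, adjusted p = 0.00376). In segment 3 the groups overlapped (-0.19 ± 0.33, adjusted p = 0.82). Exons of the germ cell gene Ggn on the opposite strand cover 3.25% of the Spred3 exons. Ggn had 5 to 128 counts per library against 37 to 333 for Spred3, and the sources used here do not say which strand was counted. Ggn was highest in the batch 3017 library of control segment 2 and was lower after ligation in each segment. Its levels were 1.4 and 1.67 against 0.443 and 0.476 CPM in segment 1 and 4.41 and 1.87 against 0.181 and 0.268 CPM in segment 2. In segment 3 they were 2.3 and 0.842 against 0.131 and 0.228 CPM. The part of Ggn reads in the Spred3 counts was not tested.

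The opposite-strand gene model Gm42922 covers 24.4% of the Spry1 exons, with 2 to 62 counts per library against 375 to 4209 for Spry1. Spry3, the remaining Sprouty gene, had 0 to 5 counts in any library and was not tested.

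Il17rd encodes a single-pass membrane protein related to interleukin 17 receptors. It was at 2.25 and 2.83 CPM in control segment 1, 3.51 and 7.11 CPM in segment 2, and 12.1 and 8.98 CPM in segment 3. Ligated libraries held 4.29 and 5.35 CPM, 5.05 and 8.18 CPM, and 7.41 and 7.48 CPM. Both libraries of control segment 1 were the lowest of all 12 and both of control segment 3 the highest, with the ligated groups between them. Il17rd was 1.9-fold higher in ligated segment 1 (log2 fold change 0.92 ± 0.31, edgeR adjusted p = 0.0331). This call was lost when any 1 of the 4 libraries was left out (log2 fold change 0.91 to 0.94, adjusted p = 0.112 to 0.142) and without the batch term (adjusted p = 0.0552). In segment 2 the groups overlapped (0.33 ± 0.30, adjusted p = 0.514), and in segment 3 the ligated libraries were lower with no call (-0.52 ± 0.29, adjusted p = 0.408).

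Per comparison, 7 of 7 members were called in segment 1 after ligation, 6 lower and 1 (Il17rd) higher, where 48.7% of all genes were called (24.4% lower and 24.4% higher). Their median log2 fold change was -2.74, against 0.03 over all genes tested. The groups did not overlap for 6 members below and 1 above, against 34.9% and 38.1% of all genes. The 6 falls were called in 4 of 4 fits that left out a library and under all 7 other settings. Within batches the 6 fell by 1.47 to 3.93 on the log2 scale of CPM plus 0.5.

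In segment 2, 6 of 7 members were called, all lower, where 9.86% of all genes were called and 7% were called lower. Their median log2 fold change was -1.46, against 0 over all genes. The 6 were also below control without overlap, as were 25.6% of all genes. Leaving out 1 of the 4 libraries kept all 6 below 0, with log2 fold changes of -3.54 (Spry4) to -0.94 (Spry2). Of the 6, only Spry2 kept its call in each of these fits, and calls were lost most often without a ligated library. Where calls were lost, fewer of all genes were called too. With only the 4 libraries compared, none of the 7 was called (edgeR adjusted p = 0.0606 to 0.2 for the 6). That fit called 149 of all genes, against 1895 in the main fit.

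In segment 3, 0 of 7 members were called by edgeR, where 1.72% of all genes were, with 2 members (Spred1 and Spred2) at an unadjusted p under 0.05, against 15.9% of all genes, and called by DESeq2. The log2 fold change was below 0 for all 7 under TMM scaling, but Spry1, at -0.03, turned to 0.00 with library totals alone. Of the 7, 4 members (Spry2, Spred1, Spred2 and Il17rd) lay below control without overlap, as did 23.8% of all genes.

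**Figure D2:**
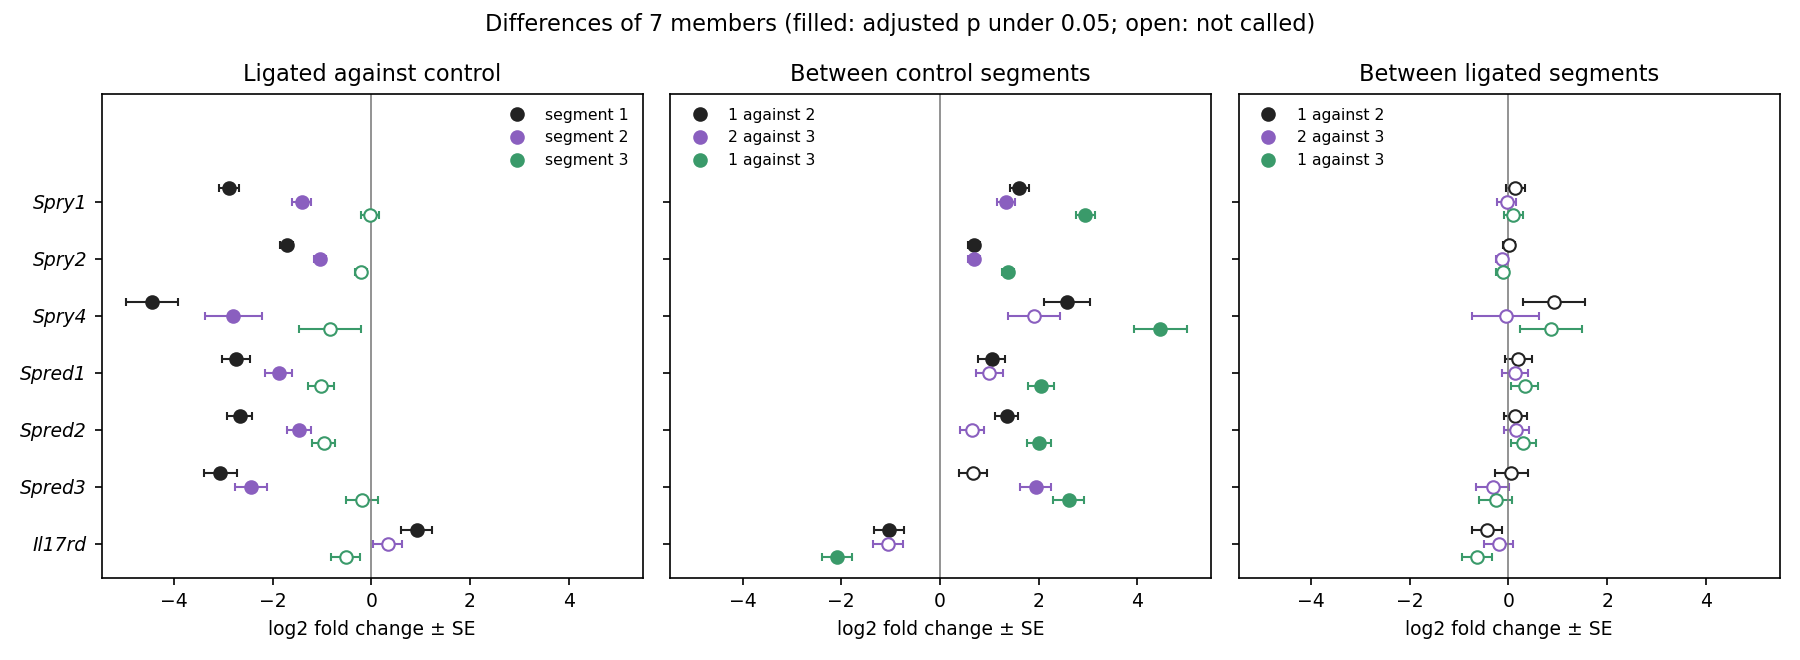
Log2 fold change ± SE of each gene for ligated against control tissue in 3 segments (left), between control segments (middle) and between ligated segments (right), filled where the edgeR adjusted p was under 0.05. The 6 Sprouty and Spred genes lie to the left of 0 in ligated segments 1 and 2 and to the right of 0 between control segments, and all points between ligated segments are open.

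The ligation effect was compared between segments with interaction terms. It differed between segments 1 and 3 for all 7 members. The effect in segment 1 minus that in segment 3 was -1.51 (Spry2) to -3.60 (Spry4) for the 6 on the log2 scale, and 1.45 for Il17rd, whose log2 fold change was 0.92 in segment 1 and -0.52 in segment 3 (edgeR adjusted p = 0.000358 to 0.0294), where 30.7% of all genes were called (14.7% with a lower and 16.1% with a higher value in segment 1). The Il17rd difference held in 1 of 8 fits that left out a library (adjusted p up to 0.123), and those of Spry4 and Spred1 in 6 of 8. The count was 4 members without the batch 3017 library of ligated segment 1 or the batch 3097 library of ligated segment 3. Between segments 1 and 2 the fall was larger in segment 1 for 3 members, with a difference in log2 fold change of -1.48 ± 0.27 for Spry1 (adjusted p = 0.00777), -1.21 ± 0.34 for Spred2 (0.0446) and -0.68 ± 0.18 for Spry2 (0.0264), where 18.5% of all genes were called (8.2% in that direction). Spry1 held in 8 of 8 fits that left out a library, Spry2 and Spred2 in 2 of 8 each. The count was 1 without either library of control segment 1, either of ligated segment 2 or the batch 3017 library of ligated segment 1, 5 without the batch 3017 library of control segment 2 and 2 (Spry1 and Spred2) without that of batch 3097. None of the 3 was called without the batch term. Between segments 2 and 3, 0 members were called by edgeR, as was no gene (0%), with 3 members (Spry1, Spry2 and Spred3) at an unadjusted p under 0.05, against 9.98% of all genes, and DESeq2 called 3. Leaving out 1 library gave -1.67 to -1.03 for Spry1, -0.90 to -0.73 for Spry2 and -2.67 to -1.72 for Spred3 in this contrast.

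Without ligation, control segment 1 exceeded control segment 3 for the 6 Sprouty and Spred genes by 1.38 (Spry2) to 4.47 (Spry4) on the log2 scale, and Il17rd was lower by 2.09 ± 0.31 in log2 terms (log2 fold change -2.09). All 7 were called (edgeR adjusted p = 1.8e-05 to 0.000806), as were 51.2% of all genes (25% higher and 26.2% lower), and all 7 held in 4 of 4 fits that left out a library. Between segments 1 and 2, 6 were called where 43.2% of all genes were (21.1% higher and 22.1% lower), 5 of them higher in segment 1 (Spry1 by 1.61, Spry2 by 0.69, Spry4 by 2.57, Spred1 by 1.05 and Spred2 by 1.35) and Il17rd lower (-1.03). Spred3 differed by 0.67 ± 0.29 there (adjusted p = 0.0907). Without the batch 3017 library of control segment 2 all 7 were called, and without the batch 3097 library 4. The count was also 4 without either library of control segment 1.

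Between control segments 2 and 3, 3 members were called (Spry1 by 1.34, Spry2 by 0.69 and Spred3 by 1.94 on the log2 scale, edgeR adjusted p = 0.027 to 0.0365), where 1.79% of all genes were called (0.911% higher). This count moved when single libraries were left out, as did the number of all genes called. The log2 differences were then 1.00 to 1.63 for Spry1, 0.61 to 0.79 for Spry2 and 1.41 to 2.37 for Spred3. Without the batch term 0 members were called, as was no gene.

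Between ligated segments 1 and 2, 1 and 3, and 2 and 3, 0 of 7 members were called by edgeR or by DESeq2, and 0 had an unadjusted p under 0.05. Of all genes 1.3%, 5.8% and 0% were called in the 3 pairs, and 13.6%, 22.7% and 7% had an unadjusted p under 0.05. The log2 differences of the 7 members were -0.64 to 0.93 over these pairs (edgeR adjusted p = 0.234 to 1), with the widest for Spry4, at 9 to 23 counts a library. Both libraries of ligated segment 1 lay above both of ligated segment 3 for 3 members (Spry4, Spred1 and Spred2) and below them for 1 (Il17rd), against 24.5% and 25.5% of all genes. Spry4 alone (1 member) lay above in ligated segment 1 against 2 (20.9% of all genes), and Spred2 above and Spry2 below in ligated segment 2 against 3 (17.7% and 17.2%). A p that misses the threshold does not show that the segments were equal. The ligation and control comparisons share control libraries, so their values are set side by side here without a test of their likeness.

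Levels of different genes can be compared only per length, here as CPM per kb of exon. In control segment 1, Spry1 led at 36.3 and 30.8 CPM per kb, followed by Spred2 (20.3 and 15.7), Spred1 (18.8 and 16.3) and Spry2 (17.1 and 15.0), which overlapped from neighbour to neighbour. Spry4 (3.21 and 2.05), Spred3 (1.34 and 1.5) and Il17rd (0.205 and 0.258) came last without overlap. In all ligated groups Spry2 led by its mean, at 4.43 to 5.45 CPM per kb over the 6 libraries, but overlapped Spry1, at 3.26 to 5.46 CPM per kb. Il17rd stood above Spred3 and Spry4 in all ligated groups and in control segment 3.

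The summed level of the 6 Sprouty and Spred genes was 97.0 and 81.3 CPM per kb in control segment 1, 49.3 and 28.2 in segment 2, and 22.9 and 16.6 in segment 3. It was 13.1 to 15.5 CPM per kb over the 6 ligated libraries, below every control library. Spry1 made up 37.4% and 37.9% of that sum in control segment 1 and 24.9% to 35.3% in ligated libraries. Spry2 made up 17.6% and 18.4% and then 29.8% to 39.4%. With the longest transcript as the length, Spred1 stood above Spred2 in control segments 1 and 3 and in ligated segment 1, and above Spry1 in control segment 3. Il17rd then stood above Spry4 in control segment 2, and no other order changed. Spry4 (3.21 and 2.05 CPM per kb) and Spred3 (2.06 and 2.31) then overlapped in control segment 1, however.

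**Figure D3:**
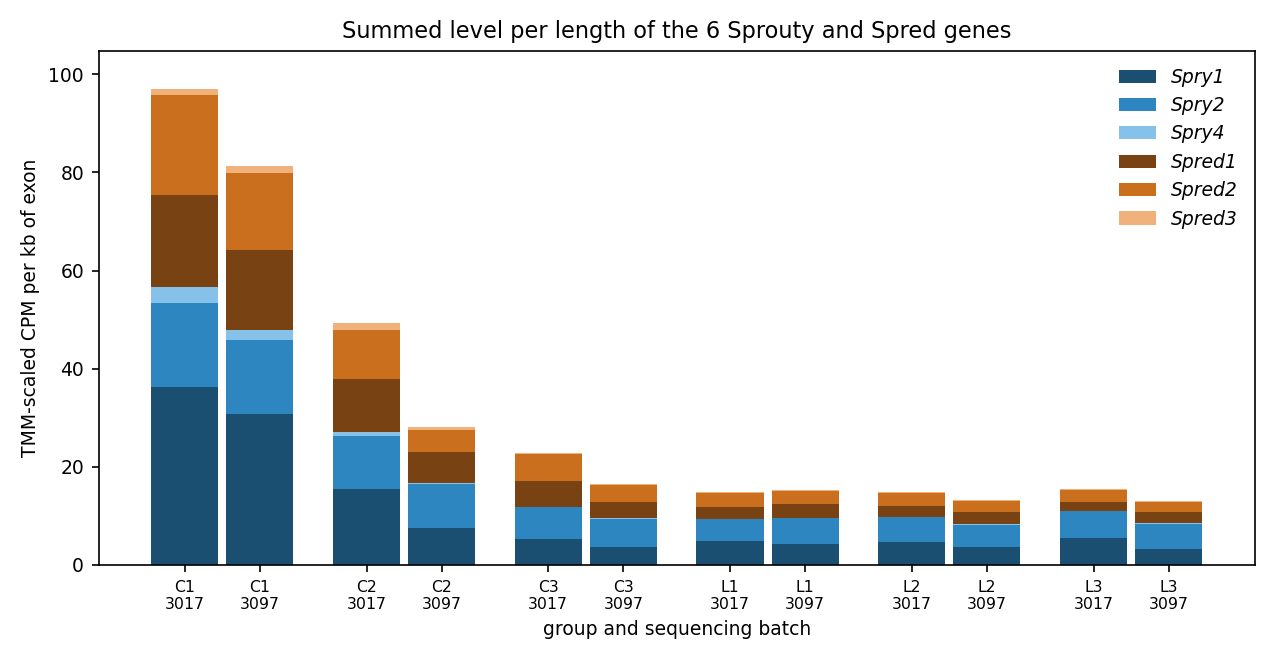
Summed TMM-scaled CPM per kb of exon of the 6 Sprouty and Spred genes in each library, stacked by gene. The sum falls from 97.0 and 81.3 in C1 to 22.9 and 16.6 in C3 and lies between 13.1 and 15.5 in the 6 ligated libraries.

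Levels of the 6 genes followed one another across the 12 libraries, with Pearson's r of 0.93 to 0.98 on log2 CPM in their 15 pairs, and of -0.82 to -0.65 between each of them and Il17rd. The libraries are the same for every pair and fall into groups, so these are descriptions with no test. The genes most alike in pattern among those with a mean of at least 1 CPM were Hp1bp3, Slc45a3 and Kctd1 for Spry1 (r = 0.991 to 0.994) and Pcsk5, P4ha2 and Xkr7 for Spry2 (0.985 to 0.987). They were Lbh, Zmat4 and St3gal1 for Spry4 (0.991 to 0.993) and Slc28a3, Dapl1 and Macrod2 for Spred1 (0.993 to 0.997). Spred2 was nearest to Bhlhe40, Zkscan17 and Skil (0.988 to 0.991) and Spred3 to Tmem150c, Plekha3 and Atg4a (0.991 to 0.993). Il17rd had no neighbour as near, with Tstd2, Gpr137b and Gfra1 at 0.941 to 0.948. The log2 CPM hold a prior count of 2, a small count added before the log. With 0.5 instead, Xkr7 and Zmat4 were no longer among the 3 nearest, and the other genes named stayed. Ligated group means were 0 to 0.0253 CPM for Xkr7 and 0.0503 to 0.166 CPM for Zmat4. High r does not mean equal size: mean levels in control segment 1 and ligated segment 1 were 233 and 140 CPM for Hp1bp3 but 106 and 10.9 CPM for Slc28a3, a nucleoside transporter gene.

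Receptor tyrosine kinases had 6 of 26 tested genes higher and 10 lower in ligated segment 1, with a median log2 fold change of -0.22. Pdgfra (-3.98 ± 0.66) and Ret (-3.44 ± 0.74), a target of Spry1 action in kidney, were the most reduced, and Erbb4 (3.43 ± 1.04) and Insrr (1.85 ± 0.49) the most raised. Erbb4 rests on few counts, at 0.0721 ± 0.0666 CPM in control and 0.793 ± 0.66 CPM in ligated segment 1 (SD, n = 2). Of the growth factor ligands tested, 8 of 18 rose and 2 fell (median 0.90). The 2 were Hbegf (-3.65 ± 0.24), a ligand of the epidermal growth factor receptor, and Vegfa (-3.22 ± 0.21), and Tgfa (2.66 ± 0.13) and Fgf10 (2.49 ± 0.49) rose most.

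The adaptors and kinases of the Ras-ERK cascade had 7 of 24 higher and 8 lower (median -0.09). The adaptor gene Shc1 was among the lower (-0.78 ± 0.08), and the kinase genes Araf (1.46 ± 0.18) and Rps6ka1 (0.84 ± 0.10) rose most. Named binding partners and regulators of Sprouty and Spred proteins had 3 of 15 higher and 6 lower (median -0.01). Rasa1, a Ras GTPase activator (-1.98 ± 0.16), and the Cbl relative Cblc (-1.42 ± 0.14) fell most, and Cav1 (1.01 ± 0.11) and Sh3kbp1 (0.71 ± 0.21) rose most. The shares called in these lists are read against 48.7% of all genes.

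Among other feedback inhibitors, 4 of 13 rose and 4 fell (median -0.12). The ERK phosphatase genes Dusp4 (-6.57 ± 0.56) and Dusp6 (-5.75 ± 0.49) had larger negative log2 fold changes than any Sprouty or Spred gene, while Socs5 (1.28 ± 0.21) and Errfi1 (0.91 ± 0.13), which acts on the epidermal growth factor receptor, rose. ERK target genes had 11 of 13 lower and 1 higher, with a median of -2.99. Etv4 (-9.87 ± 0.82) and Etv5 (-8.97 ± 1.10), ETS factors that ERK signalling induces, fell most, Mcl1 fell by 0.63 ± 0.08 (log2 fold change -0.63), and Myc was the 1 that rose (0.93 ± 0.27). In segment 2 these 2 lists had 4 of 13 lower and 2 higher (other feedback inhibitors) and 4 of 13 lower and 0 higher (ERK targets), against 9.86% of all genes called. In segment 3 no gene of the 6 pathway lists was called, where 1.72% of all genes were.

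**Figure D4:**
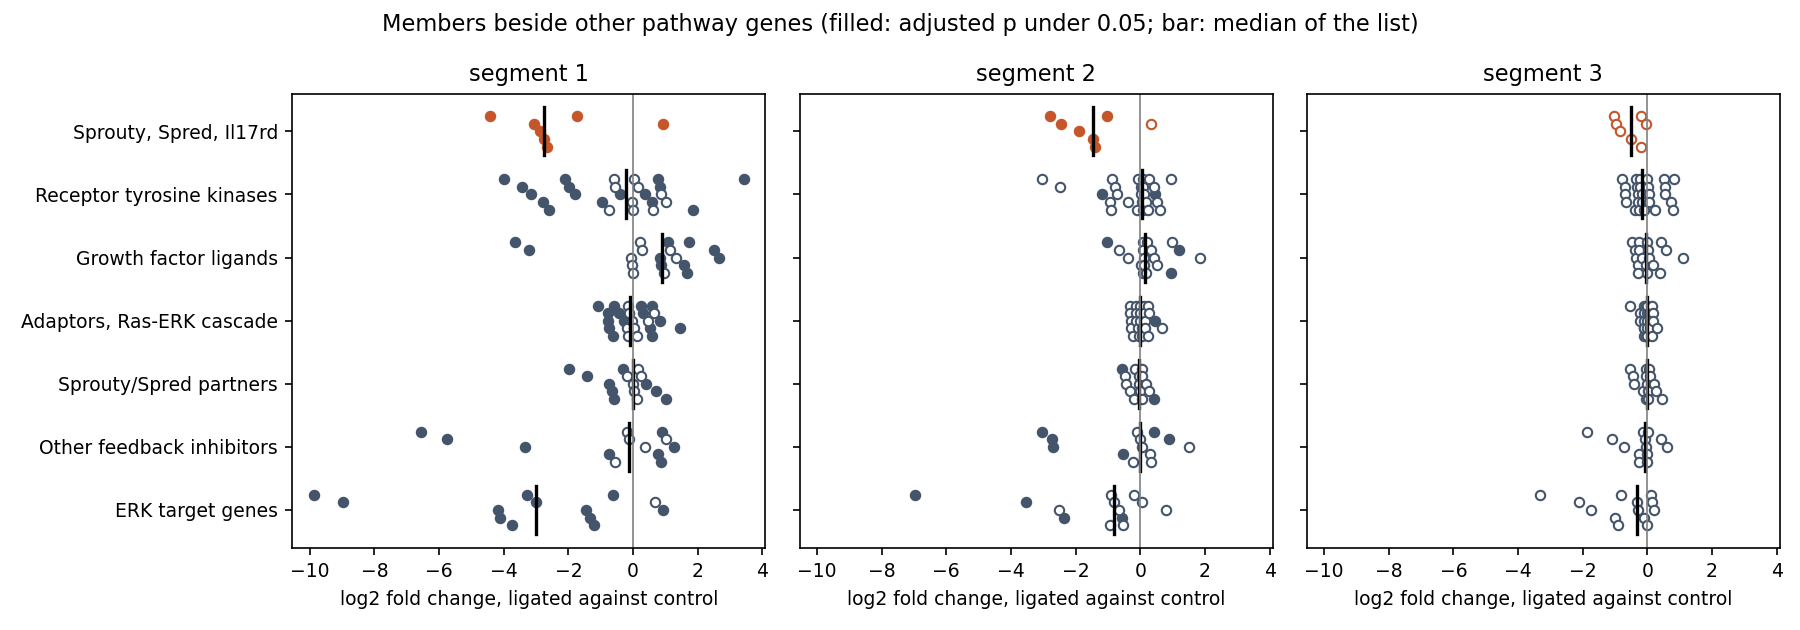
Log2 fold change of ligated against control tissue in segments 1, 2 and 3 for the 7 members (orange) and 6 lists of pathway genes (grey), filled where the edgeR adjusted p was under 0.05, with the list's median as a bar. In segment 1, 6 of 7 members (median of the 7 -2.74) and 11 of 13 ERK target genes (median -2.99) were called lower and lie to the left, with Il17rd (0.92) and Myc (0.93) to the right, and the other 5 lists have medians between -0.22 and 0.90.

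Some marker genes of other cell types also differed between the groups. Their counts are read against all genes, of which 24.4% were called higher and 24.4% lower in segment 1. In segments 2 and 3, 9.86% and 1.72% of all genes were called. The summed level of 12 endothelial markers was 153 and 160 CPM in control segment 1 and 71.5 and 83.9 CPM in ligated segment 1, and 7 of 12 fell and 1 rose. In segment 2 it was 47.8 and 56.3 CPM in control and 48.3 and 51.9 CPM in ligated libraries, with 0 of 12 called. The 10 smooth muscle markers summed to 3510 and 3520 CPM in control segment 1 and 594 and 731 CPM in ligated segment 1. That difference is that of Actg2 (a mean of 2860 against 11.5 CPM), as 6 of 10 rose and only Actg2 and Mylk fell. The 8 sperm and germ cell markers summed to 119 to 232 CPM in control segments 2 and 3, to 11.2 and 13.5 CPM in control segment 1, and to 0.476 to 0.84 CPM in ligated tissue, and all 8 fell in each segment.

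The remaining marker lists in segment 1 are read against the same 24.4% of all genes in each direction. Counts such as 2 of 8 or 3 of 10 are near that share. Of the principal cell markers, 10 of 12 fell and 0 rose, and among general epithelial markers 3 of 8 rose and 0 fell. Clear and narrow cell markers had 6 of 8 higher and 1 lower, at a sum of 284 and 373 CPM in control and 988 and 1070 CPM in ligated libraries. Basal cell markers had 2 of 8 higher and 3 lower (424 and 435 against 358 and 503 CPM). Fibroblast markers had 8 of 10 higher and 1 lower (723 and 752 against 549 and 718 CPM), with the 1 lower, Pdgfra, going from a mean of 519 to 32.2 CPM, macrophage and dendritic cell markers 3 of 10 higher (146 and 163 against 201 and 228 CPM), and ciliated cell markers 6 of 8 higher (100 and 102 against 177 and 204 CPM). Lymphocyte markers had 2 of 5 tested higher (2.29 and 2.93 against 3.57 and 4.65 CPM), and erythrocyte markers 2 of 5 lower (10.4 and 16.2 against 5.35 and 11.7 CPM). The part of these cell types in the members' differences was not tested.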

How the data were processed

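The deposited values are raw counts of reads for each gene, as whole numbers without normalization, with a table for each sequencing batch. Libraries were made with a directional kit after polyA selection, per the labels' protocols. Trim Galore 0.6.0, cutadapt, FastQC, STAR 2.7.0e and GRCm38 (mm10) are named in the submitters' processing notes. Which counting tool, strand option and gene annotation were used is not stated in the sources at hand. The 55536 gene identifiers were all found in GENCODE M21. Columns carry a group name and the table a batch, so libraries are named by group and batch, since the labels' replicate numbers name no batch.

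Counts were fitted with edgeR 4.0.16 (R 4.3.3): filterByExpr with a minimum count of 10 kept 19213 genes, library sizes were TMM-scaled, and a quasi-likelihood model (glmQLFit, robust; glmQLFTest, two-sided) with group and batch was fitted to all 12 libraries, whose groups share 1 estimate of the spread. A gene counts as called where its p, adjusted over all genes tested (Benjamini-Hochberg), was under 0.05. Standard errors were derived from each log2 fold change and F value. With pools of 2 mice and 2 libraries a group, p-values measure the spread between pools, and separate mice for each pool are not stated. Batch is a block because the series' design text gives it. Deviations of same-batch libraries from their group means correlated between groups at 0.08 to 0.55, and 1798 genes differed between batches. Libraries of each group differed by more than sampling noise. Without molecular identifiers, reads do not count independent molecules.

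Alternatives were DESeq2 1.42.0, DESeq2-type size factors in edgeR, library totals alone, no low-count filter, a minimum count of 30, no batch term, only the groups compared, and leaving out each library. The script was tested on simulated data with the same spread for every gene and no batch difference. That test therefore does not cover batch effects or unequal spread between groups. Named genes are the 7 members, the 3 tested genes most correlated with each on log2 CPM (prior count 2) among symbols with a mean of at least 1 CPM (Gm-number, Rik, clone and -ps types left out), and the 2 called genes of largest and the 2 of smallest log2 fold change in segment 1 of each pathway list, of which 1 is not reported here. The members and lists were chosen with earlier results of these data known.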

Additional observations from a re-analysis of the deposited data

Results flagged for a closer look

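Results are listed here when a test of the difference between segments was passed, that is, when the ligation effect on a member differed between 2 segments by the edgeR interaction term. The effect in segment 1 minus that in segment 3 was -2.85 for Spry1, -1.51 for Spry2, -3.60 for Spry4, -1.72 for Spred1, -1.71 for Spred2, -2.87 for Spred3 and 1.45 for Il17rd on the log2 scale. The effect in segment 1 minus that in segment 2 was -1.48 for Spry1, -0.68 for Spry2 and -1.21 for Spred2. These contrasts share the libraries of segment 1, and groups of 2 libraries cannot be tested for outlying samples.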

How the results depend on the processing

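The falls of the 6 Sprouty and Spred genes in ligated segment 1 and the differences of all 7 members between control segments 1 and 3 kept their direction and call under every alternative run. Direction turned only for differences that were not called in the main analysis. These were Spry1 for ligation in segment 3 (-0.03 ± 0.19), Il17rd for ligation in segment 2 (0.33 ± 0.30) and differences among ligated segments.

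With DESeq2, members called were 2 for ligation in segment 3, 6 between control segments 2 and 3 and 3 for the ligation effect in segment 2 minus that in segment 3, and all genes called were 649, 1587 and 165 in these comparisons. DESeq2 also called 527, 1724 and 32 genes between ligated segments 1 and 2, 1 and 3, and 2 and 3. Without the batch term (no replicate block, the pairing by batch removed), 0 members and 0 genes were called between control segments 2 and 3, 0 members and 2255 genes for the ligation effect in segment 1 minus that in segment 2, 1162 genes for ligation in segment 2, and 112 and 577 genes between ligated segments 1 and 2, and 1 and 3. With only the groups compared, 0 members and 149 genes were called for ligation in segment 2, 1 member and 162 genes between control segments 2 and 3, and 1 member for the ligation effect in segment 1 minus that in segment 2. That fit called 211 genes for ligation in segment 3, 5046 between control segments 1 and 2, 1194 between ligated segments 1 and 2, and 1080 between ligated segments 2 and 3, and gave -0.01 for Spry2 between ligated segments 1 and 2. With library totals alone, 1 member was called for the ligation effect in segment 1 minus that in segment 2, Spry1 stood at 0.00 for ligation in segment 3, and Spry1 at 0.02 and Spry4 at 0.00 between ligated segments 2 and 3. Library totals moved the median log2 fold change of all genes from 0.03 to 0.24 in segment 1 and from 0 to 0.13 in segment 2, and the share of called genes that were higher from 50% to 67.5% and from 29.1% to 59.9%. The same setting moved that share from 51.0% to 38.6% between control segments 2 and 3, from 70.3% to 84.1% between ligated segments 1 and 3, from 52.3% to 69.0% for the ligation effect in segment 1 minus that in segment 3. No filter gave 1 gene for the ligation effect in segment 2 minus that in segment 3. A minimum count of 30 gave 165 genes and a Spry2 value of -0.00 between ligated segments 1 and 2.

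Leaving out 1 library gave 1 to 6 members and 148 to 4066 genes for ligation in segment 2, 70 to 395 genes for ligation in segment 3, 4749 to 8214 genes between control segments 1 and 2, and 0 to 7 members and 0 to 2384 genes between control segments 2 and 3. It gave 0 to 192, 15 to 534 and 0 to 1 genes between ligated segments 1 and 2, 1 and 3, and 2 and 3. For the ligation effect in segment 1 minus that in segment 2 it gave 1 to 5 members and 1614 to 4655 genes, for segment 1 minus segment 3 it gave 4 to 7 members and 3835 to 5006 genes, and for segment 2 minus segment 3 it gave 0 to 4 members and 0 to 1124 genes. Log2 fold changes ranged from -0.03 to 0.83 for Il17rd in ligation of segment 2 and from -0.15 to 0.10 for Spry1 in that of segment 3. Between ligated segments 1 and 2 they were -0.05 to 0.32 (Spry1), -0.20 to 0.21 (Spry2), -0.05 to 0.43 (Spred1), -0.06 to 0.34 (Spred2) and -0.30 to 0.40 (Spred3). Between ligated segments 1 and 3 they were -0.09 to 0.29 (Spry1), -0.34 to 0.08 (Spry2) and -0.62 to 0.09 (Spred3). Between ligated segments 2 and 3 they were -0.16 to 0.09 (Spry1), -0.81 to 0.63 (Spry4), -0.08 to 0.37 (Spred1), -0.05 to 0.38 (Spred2) and -0.43 to 0.02 (Il17rd). The lone library left in a group is then assumed to vary like the other groups. The cause of these changes was not tested. Depth limited Spry4 most, at 9 to 30 counts in control segment 3 and the ligated libraries.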
